A study of Rattus norvegicus with 18 samples.

Results

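The enzymes described here are those that make drugs, pollutants, steroids and bile acids more soluble: the cytochrome P450 families CYP1, CYP2 and CYP3, the UDP-glucuronosyltransferases (UGT), the glutathione S-transferases (GST) and the cytosolic sulfotransferases (SULT). Members were taken by gene symbol from a rat liver array study, as symbols beginning Cyp1, Cyp2 or Cyp3 and a letter, or Ugt1, Ugt2, Gsta, Gstm, Gstp, Gstt, Sult1 or Sult2. The sex-dependent genes Cyp2c11, Cyp2c12, Cyp2a2 and Sult2a2 were left out. This gave 63 of the 14217 genes measured: 3 CYP1, 22 CYP2, 4 CYP3, 8 UGT2, 4 alpha, 7 mu, 2 pi and 3 theta class GST, 7 SULT1 and 3 SULT2 genes. No UGT1 gene was among them, since its probe sets carried more than 1 symbol. The same held for 3 probe sets of CYP2, 1 of the alpha class GST and 1 of SULT1. Textbook genes such as Cyp2b1, Cyp2b2, Cyp2d1, Gsta2 and Gsta5 were not among the members. The members were taken by symbol and not by a threshold on their values, but the choice was made with earlier results of these data known.

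Livers came from male Wistar rats, an outbred stock, kept since weaning on semi-synthetic food of the AIN-93 type with 4% fat by weight. That fat came from virgin olive, sunflower or fish oil, and the rats were killed at 6 months (young) or 24 months (old), which gave 6 groups of 3 animals with 1 Affymetrix array each. No group received a standard fat source, so the oils can only be compared with one another. All rats ate freely for the first 2 months and then received a fixed ration, and lived in cages of 3, with cage mates not named in the labels. The design asked what age and the dietary fat each change in the liver. P-values set differences between groups against the spread between these animals.

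In background terms, the P450 enzymes oxidize their substrates with electrons passed on by P450 oxidoreductase, which often creates a site for conjugation. UGT enzymes then attach glucuronic acid, SULT enzymes sulfate and GST enzymes glutathione, and transporters export the products into bile or blood. In rat liver many of these genes are driven by the nuclear receptors PXR and CAR or by the aryl hydrocarbon receptor, and several differ between males and females under the control of the growth hormone pattern.

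Of the 63 members, 46 had a mean log2(signal + 16) of at least 6 over the 18 arrays and are called expressed below, and 17 were dimmer. Signals are the deposited linear intensities, scaled to a 2% trimmed mean between 99.2 and 99.4 on each array. Differences are on the log2(signal + 16) scale, on which dim genes appear to change less than they do, and carry limma's standard error. A gene was called at an adjusted p under 0.05, with Benjamini-Hochberg adjustment over all 14217 genes. Of the 10 hepatocyte markers listed, 9 were measured and none was at 0 on all arrays, with summed signals of 63974 to 78935 in young and 54425 to 73098 in old livers. The sample number 2 livers at 6 months and the third fish oil liver at 24 months stood apart from the rest, and age differences that moved most without them are given both ways.

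Averaged over the 3 oils, 2 of the 63 members were called with age, and 5.16% of all genes were called. The dim mu class GST gene Gstm5 fell 2.22-fold, with 2.39% of all genes called lower. The hydroxysteroid sulfotransferase gene Sult2a6 rose 2.08-fold, with 2.77% called higher. For 33 of the 63 members the 95% confidence interval of the age difference lay within 0.5 log2 units of 0 (52.4%), and for 49 it lay within 1 unit (77.8%). These shares were 69.6% and 96.1% over all genes, so the members were bounded less closely than genes as a whole. At an unadjusted p under 0.05 there were 18 members (21.3% of all genes), so the 2 calls do not show that few members changed. With the sample number as a block, 2.88% of all genes were called and the same 2 members passed. No member had 9 old arrays that all lay on 1 side of the 9 young ones, which 0.506% of all genes did. Of the sex-dependent genes left out of the members, Cyp2c12 and Cyp2a2 did so.

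Of the 63 members, 35 had a lower and 28 a higher mean in old livers, and the balance depended on 1 liver. At an unadjusted p under 0.05, 14 members were lower (8.82% of all genes) and 4 were higher (12.5% of all genes). The median age difference was -0.04 over all members and -0.13 over the 46 expressed ones, beside 0.03 over all genes and -0.0008 over expressed genes. Without the third old fish oil liver these member medians were 0.0036 and -0.01, with 25 of the 46 expressed members below 0 and 21 above, where all 9 old livers gave 30 and 16. The difference was below 0 in all 3 oils for 18 of the 46 expressed members (39.1%) and above 0 in all 3 for 5 (10.9%), where expressed genes as a whole gave 25.6% and 24%. Without that liver the counts were 16 (34.8%) and 6 (13%), and expressed genes gave 25.2% and 23.9%. Hepatocyte markers had a median of -0.16 with age and macrophage markers one of 0.48, and their part in these values was not tested. In pieces of whole liver, fewer cells of a type and less RNA per cell cannot be told apart.

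**Figure D1:**
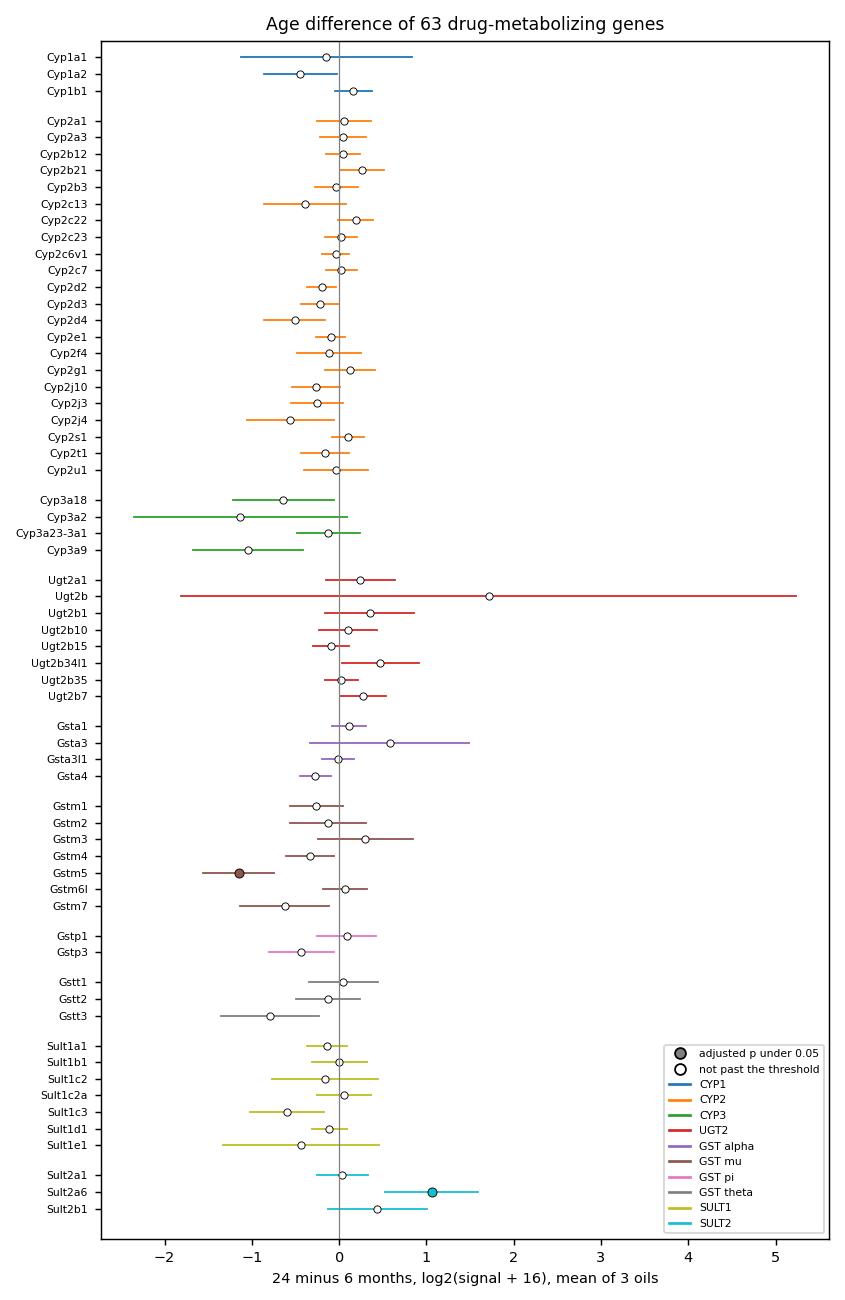
Age difference (24 minus 6 months, mean of the 3 oils, log2(signal + 16)) of each of the 63 members, coloured by family, with points for the limma estimate and lines for its 95% confidence interval. Filled points mark the 2 called genes, Gstm5 at -1.15 and Sult2a6 at 1.06; the intervals of Ugt2b and Cyp3a2 are the widest of the expressed genes.

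Gstm5 encodes a mu class transferase, a class that conjugates glutathione to epoxides and other electrophiles. At 6 months its signal (Entrez gene 64352) was 74.4, 152 and 41.9 with olive oil, 119.7, 62.6 and 37.8 with sunflower oil, then 70.0, 83.4 and 90.2 with fish oil. At 24 months it was 20.5, 19.5 and 19.3 with olive oil, 30.5, 28.4 and 28.4 with sunflower oil, then 41.4, 26.6 and 17.6 with fish oil. Old livers were thus low in every oil, and only the first old fish oil liver, at 41.4, lay above any young one (37.8). Gstm5 fell by 1.15 ± 0.19 (95% confidence interval -1.56 to -0.75, adjusted p = 0.0035). The fall within each oil was not called, at -1.42 with olive oil (adjusted p = 0.123), -0.88 with sunflower oil (0.504) and -1.16 with fish oil (0.0832). The size depends on the constant added before the log, with -0.66 for a constant of 64, and the call held with each array left out in turn.

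Sult2a6 belongs to the SULT2A group, which adds sulfate to hydroxysteroids and bile acids. In young livers its signal (Entrez gene 24902) was 1178, 622 and 727 with olive oil, 1451, 2364 and 2037 with sunflower oil, then 1050.0, 639 and 1300 with fish oil. In old livers it was 1210, 1067 and 3229 with olive oil, 2234, 4165 and 4945 with sunflower oil, then 2518, 1455 and 3681 with fish oil. The 3 highest young values were those of sunflower oil and the 2 highest old values were too, while the ages overlapped in olive oil and sunflower oil and did not in fish oil. Sult2a6 rose by 1.06 ± 0.25 (95% confidence interval 0.53 to 1.59, adjusted p = 0.0215). Without the number 2 livers at 6 months the difference was 0.95 and the call ended (adjusted p = 0.0730), and without the third old fish oil liver it was 0.96 (adjusted p = 0.0420).

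Cyp3a9, a CYP3A gene that is higher in female than male rats, came next. Its young signals (Entrez gene 171352) were 1507, 1078 and 1319 with olive oil, 286.7, 248.8 and 906 with sunflower oil, then 944, 727 and 909.7 with fish oil. Its old signals were 63.1, 327 and 453 with olive oil, 449.9, 249.7 and 346 with sunflower oil, then 617, 672 and 638 with fish oil. The young olive oil livers were the 3 highest of all 18, and the ages overlapped in sunflower oil. The age difference was -1.04 ± 0.30 (adjusted p = 0.0523) over the oils. It passed in 3 of 9 alternative settings and in 3 of 18 fits with an array left out.

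**Figure D2:**
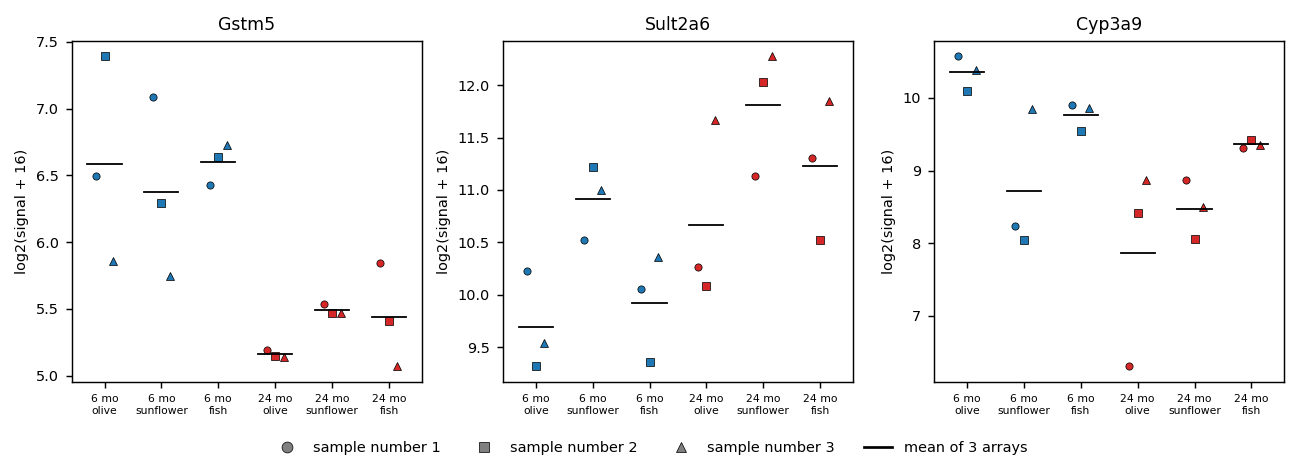
Signal of Gstm5, Sult2a6 and Cyp3a9 in each of the 18 livers, as log2(signal + 16) by age and oil, with blue for 6 months, red for 24 months, a marker shape for each sample number and a bar for the mean of 3 arrays. Gstm5 is low in old livers of every oil, Sult2a6 is highest with sunflower oil at 24 months, and Cyp3a9 is highest in young olive oil livers.

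The promoters of these 3 genes differed in base composition and motifs. RefSeq promoters of assembly GRCr8, from 250 bases before to 50 after the start site, were matched for 57 of the 63 members. Sequences run 5′ to 3′ on the gene's own strand, with capitals for matches on either strand to 6 short motifs. Of these, GCGTG is the core of the aryl hydrocarbon receptor element. The antioxidant response element was searched as TGACNNNGC and a STAT5-type element as TTCNNNGAA. A TATA box was taken as TATAAA. For HNF1 the letters searched were GTTAAT. For nuclear receptors such as PXR and CAR, part of an element was searched as AGTTCA. The 3 windows are Gstm5 at chr2:198219519-198219818 (plus strand), Sult2a6 at chr1:84097759-84098058 (minus strand) and Cyp3a9 at chr12:21960111-21960410 (minus strand), shown because these genes had the smallest age p of all members.
Gstm5: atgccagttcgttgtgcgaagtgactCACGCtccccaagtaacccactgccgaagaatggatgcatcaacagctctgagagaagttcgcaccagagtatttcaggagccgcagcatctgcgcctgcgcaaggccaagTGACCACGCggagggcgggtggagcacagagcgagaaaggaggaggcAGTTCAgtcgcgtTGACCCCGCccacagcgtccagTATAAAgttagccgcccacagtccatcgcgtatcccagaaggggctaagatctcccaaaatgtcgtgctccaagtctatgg
Sult2a6: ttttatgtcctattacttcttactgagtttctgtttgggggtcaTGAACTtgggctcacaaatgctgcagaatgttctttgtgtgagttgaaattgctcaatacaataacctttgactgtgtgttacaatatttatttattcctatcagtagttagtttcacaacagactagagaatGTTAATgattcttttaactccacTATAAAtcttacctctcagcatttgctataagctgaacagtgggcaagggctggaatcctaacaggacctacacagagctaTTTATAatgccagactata
Cyp3a9: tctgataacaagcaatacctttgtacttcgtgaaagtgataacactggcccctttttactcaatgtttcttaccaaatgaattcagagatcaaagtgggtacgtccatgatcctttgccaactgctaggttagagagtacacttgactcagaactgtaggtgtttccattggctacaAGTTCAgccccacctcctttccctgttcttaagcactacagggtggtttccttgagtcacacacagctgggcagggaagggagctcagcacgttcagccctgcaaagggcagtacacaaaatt

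The Gstm5 window is 57.3% G and C and holds GCGTG at 2 places and TGACNNNGC at 2, of which 1 pair overlaps, plus TATAAA and AGTTCA. That of Sult2a6 is 36.3% G and C, with TATAAA at 2 places, GTTAAT and AGTTCA, and that of Cyp3a9 is 46.0% G and C with AGTTCA alone. Among the 57 members, 31.6% held TATAAA and 31.6% AGTTCA, beside 14.3% and 14.4% of all 27457 promoters. GCGTG was in 17.5% of members and 31.1% of all promoters. TGACNNNGC was in 10.5% and 12.2%, TTCNNNGAA in 10.5% and 8.68%, and GTTAAT in 12.3% and 7.37%. A match is a description of letters and not of binding.

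The families sit in clusters of near relatives, and 41 of the 63 members had another member as the next protein-coding gene in the RefSeq order. Members lay on 10 chromosomes, with 21 on chromosome 1, 11 on chromosome 14 and 8 on chromosome 2. Gstm5 lay between Eps8l3 and Gstm6l. Gstm6l was near background at 1.0 to 15.8, and Gstm7, on the other side of Gstm6l, was at -0.63 ± 0.24 with age (adjusted p = 0.141) and -0.38 without the third old fish oil liver. Probes of such close relatives may share targets, so members are not independent of one another.

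Among the P450 members, none was called with age, and those of the CYP2 family lay closest to 0. This does not cover Cyp2c12 and Cyp2a2, which were left out of the members and separated the ages in all livers, as given below. The 22 CYP2 members had a median of -0.04, and the confidence interval stayed within 1 log2 unit for 21 of them. Cyp2e1, which oxidizes ethanol, ran from 7888 to 10357 in young and 7319.6 to 9274 in old livers (-0.10 ± 0.08). Cyp2c6v1, a phenobarbital-inducible form, ran from 7778 to 9125 and from 7368 to 9469 (-0.04 ± 0.07). Young and old ranges overlapped widely for both genes. Cyp2c7, a retinoid-metabolizing form, was at 0.03, Cyp2c23, an arachidonic acid epoxygenase, at 0.02, Cyp2b3 at -0.03 and the testosterone hydroxylase gene Cyp2a1 at 0.05. Cyp2c22 was at 0.19 (adjusted p = 0.26).

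The male-specific Cyp2c13 was at -0.39 ± 0.22 (adjusted p = 0.334), and at -0.15 without the third old fish oil liver. Several CYP2D and CYP2J genes were also below 0. Cyp2d2, the rat debrisoquine hydroxylase, was at -0.20 ± 0.08 (adjusted p = 0.142), and Cyp2d3 was at -0.22 ± 0.10 (0.227). Cyp2d4 was at -0.51 ± 0.16 (0.0810) by its brighter probe set and at -0.58 by its second one, which passed in a fit over all probe sets (adjusted p = 0.0312). With the mean of both probe sets it was at -0.54 and was called (adjusted p = 0.0277). Cyp2j3, of a group that oxidizes arachidonic acid, was at -0.25 (adjusted p = 0.323) and its second probe set at 0.13. Cyp2j4 was at -0.56 (adjusted p = 0.180). Without the number 2 livers at 6 months Cyp2j4 was at -0.92 and was called (adjusted p = 0.0149).

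In the CYP1 family Cyp1a2, which oxidizes caffeine and aromatic amines, ran from 3264 to 8431 (median 4554) in young livers and from 2119 to 5959 (median 3928) in old ones. The ranges overlapped, and the difference was -0.44 ± 0.20 (adjusted p = 0.204). The inducible genes of the family were dim. Cyp1a1 ran from 0.7 to 159.6 over the 18 livers and Cyp1b1 from 8.3 to 28.4, with age differences of -0.15 and 0.16 (adjusted p = 0.899 and 0.375).

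The 4 CYP3A genes, which oxidize a large share of drugs and also steroids, were all lower in old livers, with a median of -0.84, but none was called. Cyp3a2, a male-predominant form, ran from 4632 to 7755 in young livers, and its old values were 5039, 6591 and 4495 with olive oil, 6181, 964 and 3506 with sunflower oil, then 6543, 5451 and 119 with fish oil. The second sunflower oil and the third fish oil livers were far below the other old ones, and 5 of the 9 old livers lay within the young range. The age difference was -1.13 ± 0.58 (adjusted p = 0.273), and -0.53 without the third fish oil liver. Cyp3a18, also male-predominant, was at -0.64 ± 0.27 (0.185), and at -0.38 without that liver. The dexamethasone-inducible Cyp3a23-3a1 was at -0.13 (0.722), and at 0.04 without that liver.

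No UGT2 gene was called, and 7 of the 8 were above 0, with a median of 0.26. The widest range of any member belonged to Ugt2b, which is taken up separately. Ugt2b15, a steroid-conjugating form, ran from 2357 to 3548 over all 18 livers (-0.09 ± 0.10, adjusted p = 0.629), and Ugt2b35 ran from 3514 to 5163 (0.02 ± 0.09, 0.915). Neither gene separated the ages. Ugt2b1 was at 0.35 (adjusted p = 0.435), Ugt2b34l1 at 0.47 (0.198) and the dim Ugt2b7, at 0.4 to 15.6, at 0.27 (0.223).

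Among the GST genes Gstm5 alone was called. Gsta4, which clears hydroxynonenal, a product of lipid peroxidation, ran from 1479.7 to 2007 (median 1672) in young and from 1188 to 1764 (median 1393) in old livers, ranges that overlapped. Its difference of -0.27 ± 0.09 had a narrow error but did not pass (adjusted p = 0.0753). The alpha class Gsta1, abundant in hepatocytes, was at 0.11 (0.534). In the mu class Gstm1 was at -0.26 (0.319) and Gstm2 at -0.13 (0.775), and without the third old fish oil liver they were at -0.13 and 0.07. Gstm4 was at -0.34 (0.143) and the dim Gstm3 at 0.30 (0.547). The pi class gene Gstp1, a marker of preneoplastic foci in rat liver, was at 0.09 (0.811), and Gstp3 was at -0.43 (0.162). In the theta class Gstt3 was at -0.79 ± 0.26 (0.0899), Gstt1 at 0.05 and Gstt2 at -0.13.

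Of the 10 sulfotransferase genes only Sult2a6 was called. Sult1c3 ran from 3800.4 to 5431 (median 4622) in young and from 1503 to 4672 (median 3710) in old livers. The old sunflower oil values were 3710.1, 1577 and 1819.9, and the old fish oil values were 4279, 4078 and 1503, so that 3 old livers were far below the young range. Its difference was -0.60 ± 0.20 (adjusted p = 0.0907). The phenol sulfotransferase gene Sult1a1 was at -0.14 (0.497), Sult1b1, whose enzyme also acts on thyroid hormones, at 0.0016 (0.997), Sult1c2 at -0.16 (0.800) and Sult1c2a at 0.05. The estrogen sulfotransferase gene Sult1e1 was at -0.43 (0.605), and at 0.05 without the third old fish oil liver. The dim genes Sult1d1 and Sult2a1 were at -0.11 and 0.04, and Sult2b1, which sulfates cholesterol, was at 0.44 (0.366).

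Within single oils, ageing called no member. With olive oil 0.141% of all genes passed and no member did by limma, and 5 members had an unadjusted p under 0.05 (10.1% of all genes). Cyp3a9 was at -2.48 ± 0.52 (adjusted p = 0.0810), from 1078 to 1507 in young down to 63.1 to 453 in old livers, without overlap. Cyp2j10, a dim gene, was at -0.56, Gsta4 at -0.37 and Sult2a6 at 0.98. With sunflower oil 0% of genes passed, and 3 members had an unadjusted p under 0.05 (7.64% of all genes). These included Sult1c3 at -1.05 (adjusted p = 0.422) and the dim Cyp2b21 at 0.55 (0.503).

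With fish oil 1.71% of all genes passed and no member did by limma, while 11 members had an unadjusted p under 0.05 (17% of all genes). Without the third old fish oil liver, 0.106% of all genes passed. Cyp2d4 was nearest to the threshold, with 389, 406 and 432 in young and 202, 246 and 112 in old fish oil livers, which did not overlap. Its difference was -1.13 (adjusted p = 0.0542), and -0.83 (0.265) without the third liver. Gstm4 was at -0.65 (0.145) and Gsta4 at -0.43 (0.140). Groups of 3 young and 3 old arrays did not overlap for 8 members with olive oil (13.9% of all genes), 6 with sunflower oil (13.5%) and 11 with fish oil (20.9%).

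Whether the age difference depended on the oil was tested directly. By limma's moderated F test no member passed, and 0% of all genes did, and 3 members had an unadjusted p under 0.05 (5.52% of all genes). These were Cyp3a9 (unadjusted p = 0.0118, adjusted p = 0.849), Cyp2d4 (0.0434 and 0.887) and Gstm3 (0.0466 and 0.887). Next were Cyp2f4 (0.0610 and 0.890) and the dim Cyp2a3 (0.129 and 0.925). The large Cyp3a9 value in olive oil was therefore not shown to differ from those in the other oils.

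No member was called between oils. Averaged over the ages, fish oil against olive oil called 0.0141% of all genes, fish oil against sunflower oil 0% and sunflower oil against olive oil 0%, and in each the limma count of members was 0. Members with an unadjusted p under 0.05 numbered 4 (5.81% of all genes), 7 (6.76%) and 4 (4.25%). The median member difference was -0.08, -0.06 and -0.01 in these comparisons, beside 0.01, 0.002 and 0.004 over all genes. In the order given, the confidence interval lay within 1 log2 unit of 0 for 53, 54 and 54 of the 63 members (84.1%, 85.7% and 85.7%). Over all genes these shares were 96.7%, 96.4% and 97.6%.

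The diet values nearest to a call belonged to few genes. Sult2a6 was higher with sunflower oil than with olive oil by 1.18 ± 0.31 (95% confidence interval 0.53 to 1.83, unadjusted p = 0.0013, adjusted p = 0.863), and -0.79 for fish oil minus sunflower oil (adjusted p = 0.661). Cyp3a9 was at 0.97 for fish oil minus sunflower oil (0.654). Cyp2f4, a P450 of the periportal zone, was at -0.66 ± 0.21 for fish oil minus olive oil (0.695). Its old values were 848, 654 and 545 with olive oil and 433, 305 and 168 with fish oil, without overlap, while its young values lay between 352 and 659. Cyp2c7 was at -0.26 and Cyp2u1 at -0.51 in that comparison, and Cyp2t1 at 0.41 for fish oil minus sunflower oil. Ugt2b1 was at 0.82 for sunflower oil minus olive oil (0.994).

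At 6 months no member was called by limma in any pair of oils, with 0% of all genes called in each. Unadjusted p-values under 0.05 were found for 3 members for fish oil minus olive oil (4.11% of all genes), 4 for fish oil minus sunflower oil (4.03%) and 4 for sunflower oil minus olive oil (3.87%). Cyp3a9 was at -1.64 and Sult2a6 at 1.22 for sunflower oil minus olive oil. At 24 months no member was called either, with 0% of all genes in each pair, and the counts were 5 (7.98%), 1 (9.21%) and 5 (4%). Cyp2f4 was at -1.20 (adjusted p = 0.286) and Cyp3a9 at 1.49 (0.470) for fish oil minus olive oil. Cyp2d4 was at -0.89 (0.273) for fish oil minus sunflower oil, and at -0.59 without the third fish oil liver.

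Ugt2b was the member with the widest swing between single livers. In 10 livers its brighter probe set (Entrez gene 24862) gave 4939 to 6113 (median 5573), and in the other 8 it gave 3.9 to 17.7, with nothing between. Its second probe set gave 342 to 1512 in the same 10 livers and 0.1 to 5.2 in the same 8, so no liver was high by 1 probe set and low by the other. Both states were found at both ages. The high state was found in 1 of 3 young livers with olive oil, 1 with sunflower oil and 2 with fish oil, and in 3, 2 and 1 of 3 old livers. The age difference of 1.71 ± 1.67 was not called (adjusted p = 0.602).

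The empty interval between the states spanned 7.20 log2 units, the widest such gap of the 14217 genes. Ugt2b was the only gene with a gap of at least 4 units and at least 3 livers on each side. Its neighbour Ugt2b15 (2357 to 3548) showed no such split, and neither did Ugt2b35 (3514 to 5163) or Ugt2b10 (462.5 to 1346). As background, Wistar rats are known for an inherited high or low capacity to glucuronidate androsterone, which is tied to a UGT2B gene. Genotype was not measured here. The RefSeq promoter of Ugt2b (GRCr8, chr14:20985199-20985498, plus strand, 39.3% G and C) is shown since no other member had 2 such states, and of the 6 motifs it holds TATAAA alone, in capitals.
Ugt2b: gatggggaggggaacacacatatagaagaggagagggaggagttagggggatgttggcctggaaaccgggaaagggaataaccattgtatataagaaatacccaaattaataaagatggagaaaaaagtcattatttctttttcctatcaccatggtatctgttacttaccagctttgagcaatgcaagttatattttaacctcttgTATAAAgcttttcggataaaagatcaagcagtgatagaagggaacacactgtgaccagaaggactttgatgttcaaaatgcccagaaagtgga

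**Figure D3:**
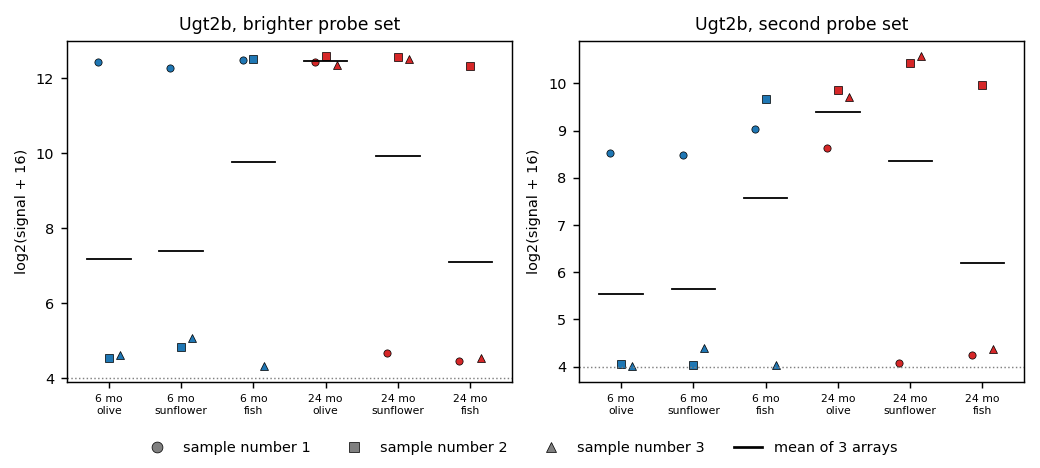
Signal of the brighter (left) and second (right) Ugt2b probe set in each liver, as log2(signal + 16) by age and oil, with blue for 6 months, red for 24 months, a marker shape for each sample number and a bar for the mean of 3 arrays; the dotted line at 4 marks a signal of 0. Both panels show the same 10 high and 8 low livers.

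For some members the livers of a group lay far apart. The median standard deviation within groups was 0.39 log2 units over the 46 expressed members and 0.26 over all expressed genes. It was above 1 for 4 of the 46 (8.70%), and for 0.992% of all expressed genes. These were Ugt2b (4.12), Cyp3a2 (1.42), Gsta3 (1.06) and Sult1e1 (1.04), followed by Cyp3a9 (0.72), Sult1c2 (0.69), Cyp3a18 (0.66) and Gstt3 (0.64). Gsta3, an alpha class transferase gene, shows how far single young livers lay apart, with 19.8, 215 and 139 with olive oil, 104, 275 and 201 with sunflower oil, then 34.6, 369.8 and 26.6 with fish oil. Its old values lay between 90.3 and 288, inside the young range (0.58 with age, adjusted p = 0.476).

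**Figure D4:**
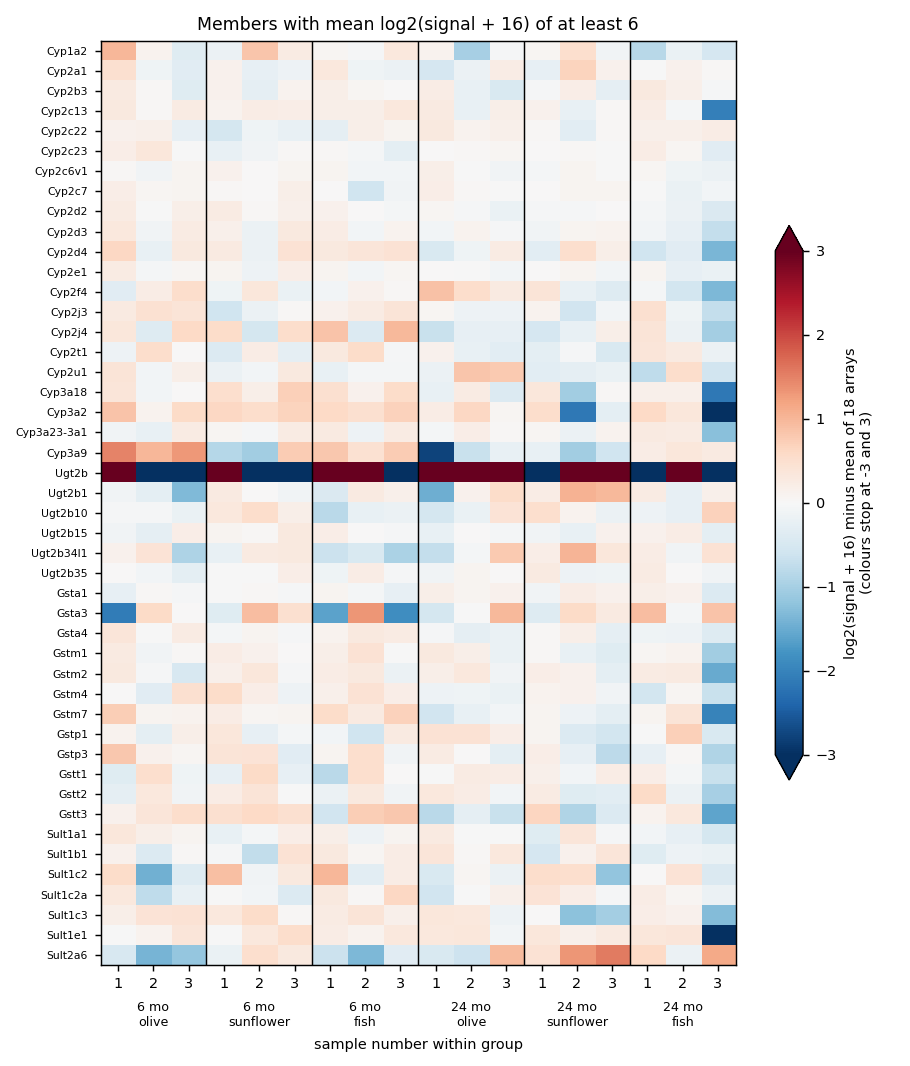
Each of the 46 expressed members (rows, by family) in each of the 18 livers (columns, by age, oil and sample number), coloured by log2(signal + 16) minus the gene's mean over all arrays, with colours ending at -3 and 3. The last column, the third fish oil liver at 24 months, is below the others for most rows, and the Ugt2b row shows the high and low livers.

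The third fish oil liver at 24 months was low for many members. Without it, the median standard deviation over expressed members was 0.30, and 2 of the 46 were above 1 (4.35%, beside 0.852% of expressed genes). It was below all the other 17 livers for 25 of the 46 expressed members (54.3%), and for 16% of all expressed genes. It was above them for 1 member, Ugt2b10 at 1346 (2.17%), and for 15.5% of expressed genes. Against the other 2 old fish oil livers, 14 of the 46 members (30.4%) were lower by at least 1 log2 unit, beside 3.23% of expressed genes. The median difference was -0.49 over these members and -0.0038 over expressed genes.

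The steepest differences were those of Cyp3a2, Sult1e1 and Ugt2b, the last of which was low in it and in 1 of the other 2 (-3.84 log2 units). Cyp3a2 was 119 in it and 6543 and 5451 in the other 2 (-5.47 log2 units), and Sult1e1 was 355 beside 7412 and 7459 (-4.33). Cyp3a18 was 728 beside 3642 and 3658 (-2.30), and the male-specific Cyp2c13 was 1377 beside 6812 and 5562 (-2.15). Each of these 4 values was the lowest of all 18. Gstm7 was 98.1, where the other 17 livers gave 289 to 752 (-2.23), Gstt3 was 472 (-1.79) and Gstm2 was 1027 (-1.78). Cyp3a23-3a1 was 2185, with -1.52. Sult2a6 was higher there, by 0.94.

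The sex-dependent genes outside the members departed in the same liver. Cyp2c12, the female-specific P450, was 5685 where the other 17 gave 10.1 to 323. Sult2a2 was 428 beside 0.9 to 24.7 in young and 17 to 379 in the other old livers. Cyp2c11, the main male-specific P450, was 1581 beside 5511.5 to 8272 in young and 4750.5 to 6652 in the other old livers. Cyp2a2 was 901 beside 3327 to 5194 in young and 1799 to 3240 in the other old livers. The 379 of Sult2a2, the 4750.5 of Cyp2c11 and the 1799 of Cyp2a2 all came from the second old sunflower oil liver. Cyp2c12 and Cyp2a2 separated the ages in all livers, and the third old fish oil liver lay furthest out. Summed macrophage markers were 8757 in it and 3654 to 4019 in the other 2, and T, NK and B cell markers 294 and 152 to 159. Summed hepatocyte markers were 56734, between the 54425 and 66476 of the other 2. Summed periportal markers were 18492 beside 22727 to 25051, and summed pericentral markers were 3920 beside 4617 to 4980. The pericentral genes were mixed. Cyp27a1, Oat and Ahr were lower in it than in both of the others, and Glul, Axin2 and Slc1a2 were higher. Cyp7a1, Lgr5 and Tbx3 lay between. The part of these cells in the low values was not tested.

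**Figure D5:**
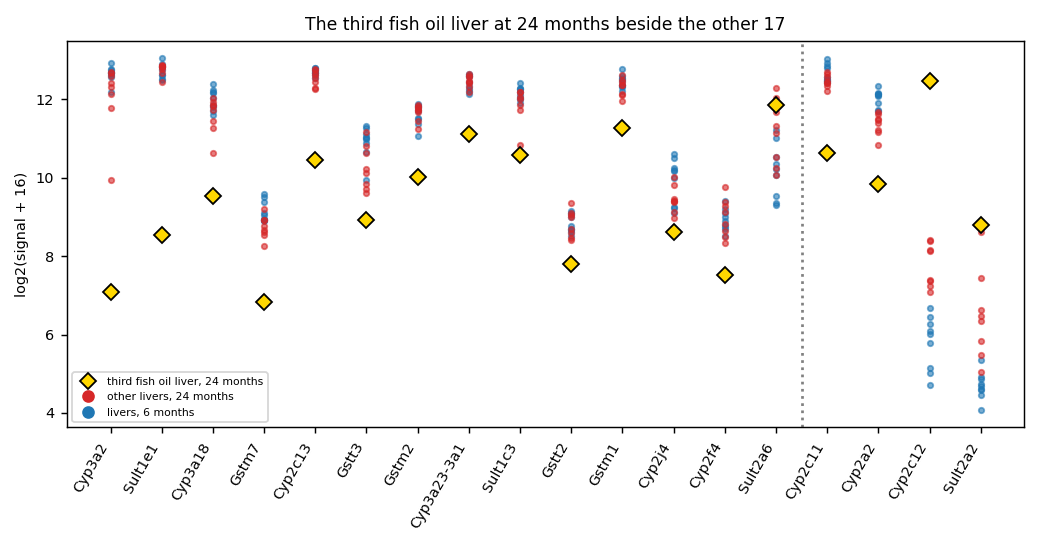
log2(signal + 16) of 13 expressed members lowest in the third fish oil liver at 24 months relative to the other 2 (without Ugt2b), of Sult2a6, and, right of the dotted line, of 4 sex-dependent genes outside the members. The diamond is that liver, red points are the other livers at 24 months and blue points those at 6 months; the diamond lies far below the points for Cyp3a2 and Sult1e1 and far above them for Cyp2c12.

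For the P450 and sulfotransferase genes lowest in this liver, the fish oil age values were smaller without it; this is a description, since they were chosen for being low there. With it and without it, ageing with fish oil gave -1.94 and -0.12 for Cyp3a2, -1.31 and 0.14 for Sult1e1, -1.0 and -0.23 for Cyp3a18, and -0.85 and -0.13 for Cyp2c13. The median over the 46 expressed members moved from -0.31 to -0.08. None of these 4 genes was called in either case. The value of Gstm5 went from -1.16 to -0.97 and that of Sult2a6 from 1.3 to 0.99.

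The sample number 2 livers of the 3 oils at 6 months were compared with the other 6 young livers, with values and no test. They did not overlap them for 8 of the 46 expressed members (17.4%), which is near the 13.4% of expressed genes. Gsta3 was 215 to 369.8 in them and 19.8 to 201 in the other young livers. Gstt1, a theta class gene, was 413 to 437 beside 156 to 287, and Gstt2 was 527 to 555 beside 350.0 to 497. These 3 GST genes were thus higher in the number 2 livers. Gstp1 was lower, at 183 to 238 beside 265 to 359.9, and so was Cyp2j4, at 533 to 593 beside 997 to 1542. The P450 genes Cyp2d3 (4639 to 4915 beside 5623 to 6506), Cyp2e1 (7888 to 8404 beside 9080.2 to 10357) and Cyp3a2 (4632 to 6256 beside 6467 to 7755) were also lower in them.

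Among expressed members, the largest mean differences of these livers from the other young ones were 1.84 for Gsta3, -1.24 for Ugt2b, -1.09 for Cyp2j4, -1.05 for Sult1c2, 0.83 for Gstt1, -0.57 for Cyp3a9, -0.54 for Sult1b1 and 0.53 for Cyp2t1. Of these, only Gsta3, Cyp2j4 and Gstt1 did not overlap the other young livers. For Ugt2b the number 2 livers did not share a state, at 7.0 with olive oil, 12.5 with sunflower oil and 5759 with fish oil. The dim Sult2b1 was also higher in them, at 54.2 to 92.0 beside 8.9 to 30.5 (1.09). Without them, ageing gave 1.19 for Gsta3 (adjusted p = 0.0571) and -1.23 for Cyp3a9 (0.0592). It gave 0.80 for Sult2b1 (0.0642), -0.51 for Sult1c2 (0.318) and 0.33 for Gstt1 (0.249). Gstp1 was then at -0.08, Gstt2 at 0.0073, Sult1b1 at -0.18, Cyp2d3 at -0.34 and Cyp2e1 at -0.17, and Cyp2t1, at -0.16 with them, was at 0.01.

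Lists of related genes outside the members were described by counts and medians of the age difference. Of 29 other drug-metabolizing genes measured (36 listed), 3 fell with age and none rose: the carboxylesterase gene Ces1c by 0.87 (adjusted p = 0.0034), the microsomal glutathione transferase gene Mgst2 by 0.87 (0.0012) and Gsto1, an omega class transferase gene, by 0.45 (0.0195), whose call ended under quantile normalization (0.0745). The 3 are 10.3% of this list, beside 2.39% of all genes called lower and 2.77% called higher. The median of the list was -0.23, with 23 of 29 below 0. Of 17 genes for electron supply and cofactors, 1 fell, Ugp2, which makes UDP-glucose, by 0.87 (0.0086), which is 5.88% of that list, and the median was -0.20. Por, the P450 oxidoreductase, was at -0.71 (0.0534), and Alas1, the first enzyme of heme synthesis, at -0.59 (0.261).

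Of 18 regulators measured (19 listed), 1 rose: Nfe2l2, which encodes NRF2, the activator of antioxidant and GST genes, by 0.94 ± 0.11 (adjusted p = 0.0003). That is 5.56% of the list, beside 2.77% of all genes called higher. The median of the regulators was -0.05. The PXR gene Nr1i2 was at -0.24 (0.393), the CAR gene Nr1i3 at -0.16 (0.735) and Ahr at -0.08 (0.839). Of 16 drug transporter genes measured (19 listed), none was called by limma, 3 had an unadjusted p under 0.05 (18.8%, beside 21.3% of all genes), and the median was -0.09. All 4 medians stand beside 0.03 over all genes. At the same unadjusted threshold were 51.7% of the other drug-metabolizing genes, 29.4% of the electron and cofactor genes and 27.8% of the regulators.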

How the data were processed

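RNA from 18 rat livers was hybridised to Affymetrix Rat Genome 230 2.0 chips. The deposited intensity values, with 1 value for a probe set on an array, were linear, ran from 0 to 14085 and shared a 2% trimmed mean of 99.2 to 99.4, so the authors had scaled them before deposit. RMA and Partek are named, with no version, in the submitters' processing notes. RMA gives log2 values, which these were not, so the steps behind the values are unknown here. Array medians were 15.5 to 18.4 at 6 months and 18.5 to 20.6 at 24 months, and 47.3% of values lay under 16. For arrays, precision is limited by their number, 3 in each group.

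The table held 31042 probe sets, of which 20826 had 1 gene symbol, 436 several and 9780 none in the platform annotation. The probe set brightest by mean log2(signal + 16) stood for its gene, which gave 14217 genes. The 63 members had 68 probe sets, and 7 further probe sets of these families carried several symbols and were not used. All 63 symbols were found in the RefSeq gene table. Means of the 6 groups were fitted over the 18 arrays in R 4.3.3 by lmFit and eBayes of limma 3.58.1, with 12 residual degrees of freedom and 4.32 prior ones, with contrasts for age, oils and their interaction and Benjamini-Hochberg adjustment over all genes. Adjusted p-values are limma's. The fit was tested on simulated data. Tables, sequences and figures were made with Python 3.11.15, numpy 2.4.6, pandas 2.3.3 and matplotlib 3.10.9.

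The members, lists and tests were chosen with earlier results of these data known. Genes named were all called members, the 5 members with the smallest p in each comparison, a list of textbook members, the 8 expressed members with the largest spread within groups and the 8 deviating most in the livers that stood apart. Neighbouring members, dim members given as examples and genes of the added lists were added with their values in view. The labels give groups the same sample numbers. At 6 months all 9 same-numbered pairs had deviations from the group means that correlated at 0.15 to 0.46 (other pairs -0.33 to 0.11), so the numbers pair those livers, as the values and not the labels show. At 24 months the correlations ran from -0.11 to 0.20, with 2 of 9 over 0.1. The alternatives were the constant (1 or 64), a filter on dim genes, quantile normalization, the sample number as a block, the mean of all probe sets of a gene, array weights, leaving out the livers that stood apart, fitting only the groups compared, and leaving out each array in turn.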

Additional observations from a re-analysis of the deposited data

How the results depend on the processing

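Counts of called members were the same in most settings. For age over all oils the count of 2 became 4 with a constant of 64 and 4 with array weights, where Cyp3a9 and Gsta4 were added (adjusted p = 0.0499 and 0.0362, and 0.0342 and 0.0496), and it ran from 2 to 4 with an array left out, at 4 without the first sunflower oil liver at 24 months, which added Gstt3 and Sult1c3. With the mean of all probe sets of a gene it was 3, with Cyp2d4 added (adjusted p = 0.0277). For age with fish oil the count of 0 became 1 with expressed genes alone and 1 with the mean of all probe sets of a gene, Cyp2d4 in both, and ran from 0 to 1 with an array left out. The left-out range was also 0 to 1 for age with olive oil and for fish oil minus olive oil at 24 months. The cause of these shifts was not tested. Gstm5 was called in all 8 alternatives it entered (adjusted p 0.0013 to 0.0111) and in all 18 left-out fits (0.0011 to 0.0099). Its mean of 5.94 kept it out of the fit of expressed genes. Sult2a6 was called in 8 of 9 alternatives (0.0137 to 0.0730) and in all 18 left-out fits. No called value changed sign. Age differences of 21 of the 63 members, none called, changed sign in some alternative; the largest of them was Sult1e1, at -0.43, or 0.05 when the third old fish oil liver was left out, and the next was Cyp2t1, at -0.16. With the sample number as a replicate block (correlation 0.11), the count of called members for age over all oils was 2 and every other count was 0, so this block changed no member call. The block took the same correlation for both ages, although the pairing was seen at 6 months. It therefore cannot show that the pairing has no effect there.

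Calls over all genes for age moved more, from 734 to 455 with a constant of 1, 409 with the block and 1261 with array weights. For age with fish oil, 243 became 15 without the third liver at 24 months, 7 and 19 without the third and the first at 6 months, 36 and 562 without the second and the first at 24 months, and 3 with the fish oil groups alone. Within an oil, with 3 livers a group, the 95% interval of the age difference lay within 1 log2 unit of 0 for 44 (olive), 42 (sunflower) and 37 (fish) of the 63 members (69.8%, 66.7% and 58.7%), beside 87%, 88.7% and 82.7% of all genes.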

Other observations

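Of the members, 5 had a second probe set. The age differences of the brighter and the second were close for Cyp2d4 (-0.51 and -0.58) and Ugt2b (1.71 and 1.74). They differed in sign for Cyp2j3 (-0.25 and 0.13), Gstt2 (-0.13 and 0.33) and Sult2b1 (0.44 and -0.03), none of which was called. The inducible Cyp1a1 gene, at a median of 6.7 in young and 1.6 in old livers, reached 159.6 in 1 young and 82.1 in 1 old liver.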
